A study of Mus musculus with 20 samples.

Results

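The genes described are the FoxO transcription factors and the ubiquitin ligases of muscle atrophy, 7 genes of 22180 with a probe set of their own: Fbxo32, Trim63, Fbxo30, Foxo1, Foxo3, Foxo4 and Foxo6. They were chosen by name, around the lower Fbxo32 signal that earlier results of these same arrays had shown after dexamethasone. The differences between dexamethasone and saline are therefore given for the 7 genes as descriptions, without a test. For these genes, tests were run on the genotype, on the genotype by treatment interaction and on the correlation of pairs of genes, and other genes of the pathway were also tested for Dex. The lists of those other genes were likewise chosen with earlier results of these arrays known. The 7 genes had 8 probe sets, since Foxo1 had a pair of them and each other gene had 1.

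Ligase subunits and FoxO factors form one pathway in skeletal muscle. Insulin and insulin-like growth factor 1 act through the kinase Akt to phosphorylate FoxO proteins, which are then held in the cytoplasm; when that signal drops, FoxO proteins enter the nucleus and switch on Fbxo32 (atrogin-1, the F-box subunit of an SCF ligase) and Trim63 (MuRF1, a RING-type ligase of muscle filaments). Glucocorticoids drive the same program in muscle, where Fbxo32, Trim63 and Foxo1 are classic induced genes. In the nervous system FoxO factors are studied for stress resistance, autophagy and stem cell maintenance, and the role of the atrophy ligases in the cord is far less described.

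Spinal cord RNA came from mice aged 6 to 10 weeks on the C57BL/6J background, 1 Affymetrix whole-transcript array per sample and 5 arrays in each of 4 groups. Control mice (titled wt) and Cx30GRko mice (read here from the title Tg), in which Cre recombinase acting in cells that express connexin 30, chiefly astrocytes in the cord, removes the glucocorticoid receptor gene, were given saline or dexamethasone (Dex, 4 mg/kg, intraperitoneal), a synthetic agonist of that receptor, 4 h before the tissue was taken. Other cells of the cord keep the receptor. The alleles that the controls carry are not stated in the labels. The study asked which part of the response to receptor activation belongs to astrocytes. In such whole tissue, fewer cells of a type and less RNA per cell cannot be told apart.

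All values are log2 signals as deposited. They had been centred separately in replicates 1 to 3 of every group (12 arrays) and in replicates 4 and 5 (8 arrays), and differences within these 2 array sets, the first and the second, are given in that order beside the pooled ones. The Cx30GRko Dex arrays numbered 4 and 5 stood apart: their signals spread more widely over the probe sets (SD 1.95 and 1.81) than those of any other array (1.66 to 1.71), so values of the 7 genes and of named pathway genes that moved by over 1.5 times without them are also given without them. The 9 astrocyte, 11 neuron and 4 measured oligodendrocyte markers all had means above 4.34, the median of all probe sets. So did the 3 measured Schwann cell markers, while the endothelial, meningeal, mural and microglial lists each had 1 marker below it. Nr3c1, the receptor gene itself, differed between Cx30GRko and control arrays by -0.02 ± 0.26 (SE) under saline and by 0.37 ± 0.26 under Dex (limma adjusted p = 0.995 and 0.6), the latter -0.05 in replicates 1 to 3 but 0.99 in the other set. Thus this probe set, whose position relative to the removed part is not known, gave no check of the genotype labels.

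A pair of promoters is shown first, because among the 4 listed genes of the set and 5 reference genes searched (Sgk1, Cdkn1a, Fkbp5, Klf15 and Pdk4) they alone held the DNA motif that the glucocorticoid receptor binds. Cdkn1a, whose window held none, rose by 1.80 ± 0.19 (limma adjusted p = 7.64e-05), Sgk1 rose, and Trim63 averaged slightly lower with Dex. The 250 bases before the transcription start are from RefSeq (mouse build GRCm38.p6, plus strand, chr4:134314870-134315119 for Trim63 and chr10:21993640-21993889 for 1 of the 6 listed starts of Sgk1), in lower case. Capitals mark matches to the palindromic receptor motif (GNACA, any 3 bases, TGTNC) and to the FoxO motif GTAAACA, each searched on both strands.
Trim63: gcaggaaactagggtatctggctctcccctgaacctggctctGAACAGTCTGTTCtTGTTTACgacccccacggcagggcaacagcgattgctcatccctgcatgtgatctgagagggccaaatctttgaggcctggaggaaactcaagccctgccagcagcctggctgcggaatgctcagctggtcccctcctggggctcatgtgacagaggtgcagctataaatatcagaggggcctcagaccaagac
Sgk1: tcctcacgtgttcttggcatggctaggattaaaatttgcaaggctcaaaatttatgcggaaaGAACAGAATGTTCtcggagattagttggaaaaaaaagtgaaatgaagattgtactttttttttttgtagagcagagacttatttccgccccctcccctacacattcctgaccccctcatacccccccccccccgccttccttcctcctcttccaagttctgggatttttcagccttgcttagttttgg
In Trim63 the receptor motif, 208 to 196 bases before the start, and the FoxO motif, 194 to 188 bases before it, are separated by a single base and do not overlap. The receptor motif was present in 0.387% of 32851 promoter windows of this length, the FoxO motif in 3.17%, and both in 3 windows, 1 of them that of Trim63. Promoters were listed for 4 of the 7 genes, and those of Foxo1, Foxo3 and Fbxo30 held neither motif in this window. A match describes the letters only.

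The first of the ligases, Fbxo32, whose product marks muscle proteins for degradation, stood lower in Dex than in saline arrays of both genotypes. The Fbxo32 gene lies on chromosome 15 (58175879 to 58214892, GRCm38.p6; probe set 17317266). In control saline arrays, replicates 1 to 5, its signals were 6.33, 6.59, 6.78, 6.81 and 5.79. After Dex, control arrays gave 5.75, 5.41, 5.33, 5.49 and 5.81. Of the 5 control saline arrays, 4 thus lay above every control Dex array, and the fifth, at 5.79, lay just under the highest Dex array. Cx30GRko saline arrays gave 6.63, 6.29, 6.45, 6.36 and 6.41. Cx30GRko Dex arrays gave 5.97, 5.89, 5.86, 6.31 and 5.86. In Cx30GRko mice the groups overlapped through a single Dex array, replicate 4, one of the arrays that stood apart.

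**Figure D1:**
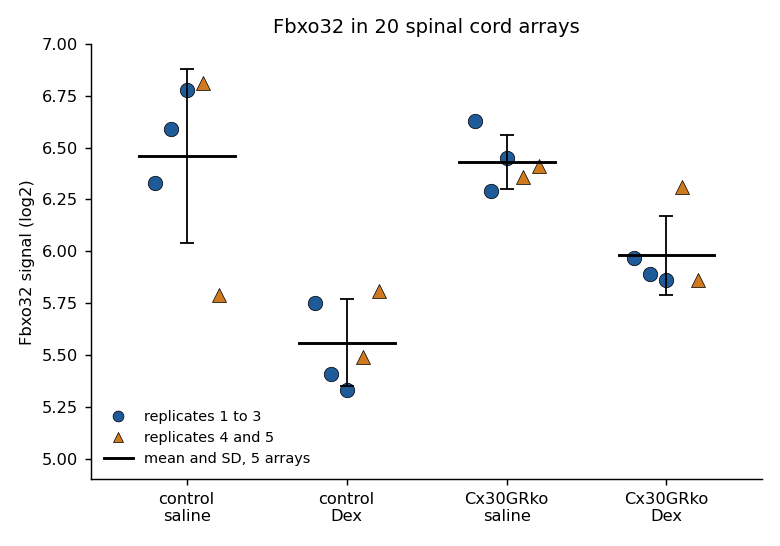
Fbxo32 log2 signal (vertical axis) in the 20 arrays by group; circles are replicates 1 to 3, triangles replicates 4 and 5, and bars the mean and SD of 5 arrays. Control Dex arrays span 5.33 to 5.81 and Cx30GRko Dex arrays 5.86 to 6.31, while the saline means are 6.46 and 6.43.

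Mean Fbxo32 signals were 6.46 ± 0.42 (SD, n = 5) after saline and 5.56 ± 0.21 after Dex in control mice. The Cx30GRko means, 6.43 ± 0.13 after saline and 5.98 ± 0.19 after Dex, lay between them. The saline means stood next to each other in this order and did not differ beyond their spread. Dex minus saline was -0.90 ± 0.17 (SE) in control mice, a 1.87-fold lower signal, and -0.45 ± 0.17 in Cx30GRko mice, 1.37-fold lower. The mean of both was -0.68 ± 0.12. All 10 Dex arrays lay below the saline mean of their genotype and array set. Within the sets the Dex difference of Fbxo32 was -1.07 and -0.65 in control mice, and -0.55 and -0.30 in Cx30GRko mice, where it was -0.52 without Dex replicates 4 and 5. The direction in the cord is thus the opposite of that known from muscle.

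Genotype was not part of the choice of genes and could be tested for Fbxo32. The comparisons that use Dex arrays would be shifted if the choice had rested more on a single genotype, which is not known. Under saline the Cx30GRko and control means lay 0.03 apart, with an interval of the difference from -0.39 to 0.32 (95%; limma adjusted p = 0.989). After Dex, every Cx30GRko array lay above every control array. Fbxo32 was the 1 gene of the 7 with that pattern, which 0.721% of all genes showed. The Dex genotype difference of Fbxo32 was 0.42 ± 0.17 (95% interval 0.06 to 0.77) and did not pass over all genes (limma adjusted p = 0.423). Within the sets it was 0.41 and 0.43, and it was 0.35 when the arrays that stood apart were left out. The Dex effect of Fbxo32 was smaller in Cx30GRko mice by 0.45 ± 0.24 (interaction; 95% interval -0.05 to 0.95), which did not pass either (adjusted p = 0.846; 0.52 and 0.35 in the sets).

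Trim63, the ring-finger ligase of thick filament proteins (probe set 17419731, chromosome 4, 134315120 to 134329629), showed no shift larger than its spread. Its mean over all arrays was 4.62, close to 4.34, the median of all probe sets. A dim signal thus limits what the lack of a shift can show. Control saline arrays gave 4.76, 4.82, 5.20, 4.83 and 4.34, and control Dex arrays 4.94, 4.43, 4.85, 3.92 and 5.40. The Dex arrays include both the lowest and the highest of these 10 values, so the groups overlap throughout. In Cx30GRko mice the saline signals of Trim63 were 4.49, 4.13, 4.45, 5.23 and 4.70, and the Dex signals 4.65, 3.94, 4.73, 4.13 and 4.37. Dex minus saline was -0.08 ± 0.24 in control and -0.24 ± 0.24 in Cx30GRko mice, and 6 of 10 Dex arrays lay below their saline mean. The Trim63 difference in Cx30GRko mice was -0.71 in replicates 4 and 5, against 0.08 in replicates 1 to 3, and -0.16 when the arrays that stood apart were left out. Sgk1, the serum- and glucocorticoid-regulated kinase whose promoter is printed beside that of Trim63, rose by 1.01 ± 0.13 as the mean of both genotypes (limma adjusted p = 0.000744; 0.87 in the second array set), with all 10 Dex arrays above their saline mean.

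Fbxo30 (MUSA1, an F-box protein that BMP signalling represses in muscle; probe set 17231662) gave 4.69, 4.73, 4.92, 4.43 and 4.74 after saline and 4.68, 4.47, 4.19, 4.71 and 4.69 after Dex in control mice. The Cx30GRko signals were 4.87, 4.84, 4.38, 4.78 and 3.90 after saline, and 4.70, 4.61, 4.87, 5.33 and 4.72 after Dex. All groups overlapped. Its lowest signal, 3.90, was that of Cx30GRko saline replicate 5, and its highest, 5.33, that of Cx30GRko Dex replicate 4. Fbxo30 differed with Dex by -0.15 ± 0.18 in control and 0.29 ± 0.18 in Cx30GRko mice, where the value was 0.03 in the first array set, 0.68 in the second and 0.17 when the arrays that stood apart were left out. The interaction for Fbxo30 was 0.45 ± 0.26 (95% interval -0.09 to 0.99; adjusted p = 0.852), and 0.33 when the arrays that stood apart were left out.

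Among the transcription factors, Foxo1 and Foxo3 averaged higher with Dex and Foxo4 and Foxo6 had no common direction. Foxo1, the FoxO member most tied to insulin action and to vessel growth (probe set 17397497), gave 5.13, 4.99, 5.30, 5.96 and 4.99 in control saline and 5.70, 5.38, 5.41, 5.61 and 4.68 in control Dex arrays. In replicates 1 to 3 every control Dex array of Foxo1 lay above every saline array, whereas in replicates 4 and 5 the Dex arrays were lower on average. Cx30GRko arrays gave Foxo1 signals of 5.22, 4.98, 4.64, 5.15 and 4.79 after saline and 5.31, 5.37, 5.48, 5.66 and 5.10 after Dex. Here 4 of 5 Dex arrays lay above all saline arrays. Dex minus saline for Foxo1 was 0.08 ± 0.20 in control mice (0.36 and -0.33 in the sets) and 0.43 ± 0.20 in Cx30GRko mice (0.44 and 0.41). A second, dimmer Foxo1 probe set (17405165, mean 3.95) differed by 0.20 ± 0.17 and 0.10 ± 0.17, so the larger value in Cx30GRko mice was not seen in it.

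Foxo3, the factor linked to autophagy genes and to neural stem cell upkeep (probe set 17240529), gave 5.05, 5.24, 5.14, 5.42 and 4.70 after saline and 5.36, 5.44, 5.37, 4.94 and 5.07 after Dex in control mice, with wide overlap. In Cx30GRko mice the Foxo3 signals were 5.13, 5.14, 5.22, 4.98 and 5.46 without and 5.16, 5.34, 5.66, 5.92 and 5.68 with Dex. The 2 Dex arrays that stood apart gave the highest and second highest of those 10 values. Its Dex difference was 0.13 ± 0.16 in control mice (0.25 and -0.05 in the sets). In Cx30GRko mice it was 0.37 ± 0.16 (0.23 and 0.58), and 0.20 without those arrays. Between genotypes after Dex Foxo3 differed by 0.31 ± 0.16 (95% interval -0.03 to 0.65, limma adjusted p = 0.475), with 0.79 in replicates 4 and 5 and -0.00 in replicates 1 to 3. This genotype difference was 0.15 when the arrays that stood apart were left out.

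Foxo4, an X-linked FoxO factor (probe set 17536657), and Foxo6, which is known chiefly from neurons (probe set 17429449), had wide spreads within groups. Foxo4 averaged 5.81 ± 0.21 (SD, n = 5) after saline and 5.52 ± 0.37 after Dex in control mice, and 5.47 ± 0.62 and 5.67 ± 0.55 in Cx30GRko mice. Its lowest signal, 4.64, and its highest, 6.61, were both from replicate 5 of Cx30GRko mice, after saline and after Dex. The Foxo4 Dex difference was -0.30 in replicates 1 to 3 of both genotypes, but 0.94 in replicates 4 and 5 of Cx30GRko mice against -0.27 in those of control mice. Pooled, it was -0.29 ± 0.27 in control and 0.20 ± 0.27 in Cx30GRko mice, and 0.03 in the latter when the arrays that stood apart were left out. Foxo6 averaged 3.75 ± 0.62 and 3.70 ± 0.30 in control mice and 3.65 ± 0.26 and 3.80 ± 0.41 in Cx30GRko mice, with Dex differences of -0.05 ± 0.25 and 0.15 ± 0.25, the latter 0.34 when the arrays that stood apart were left out. Its mean over all arrays lay below 4.34, so the alternative that filters dim probe sets leaves Foxo6 out.

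**Figure D2:**
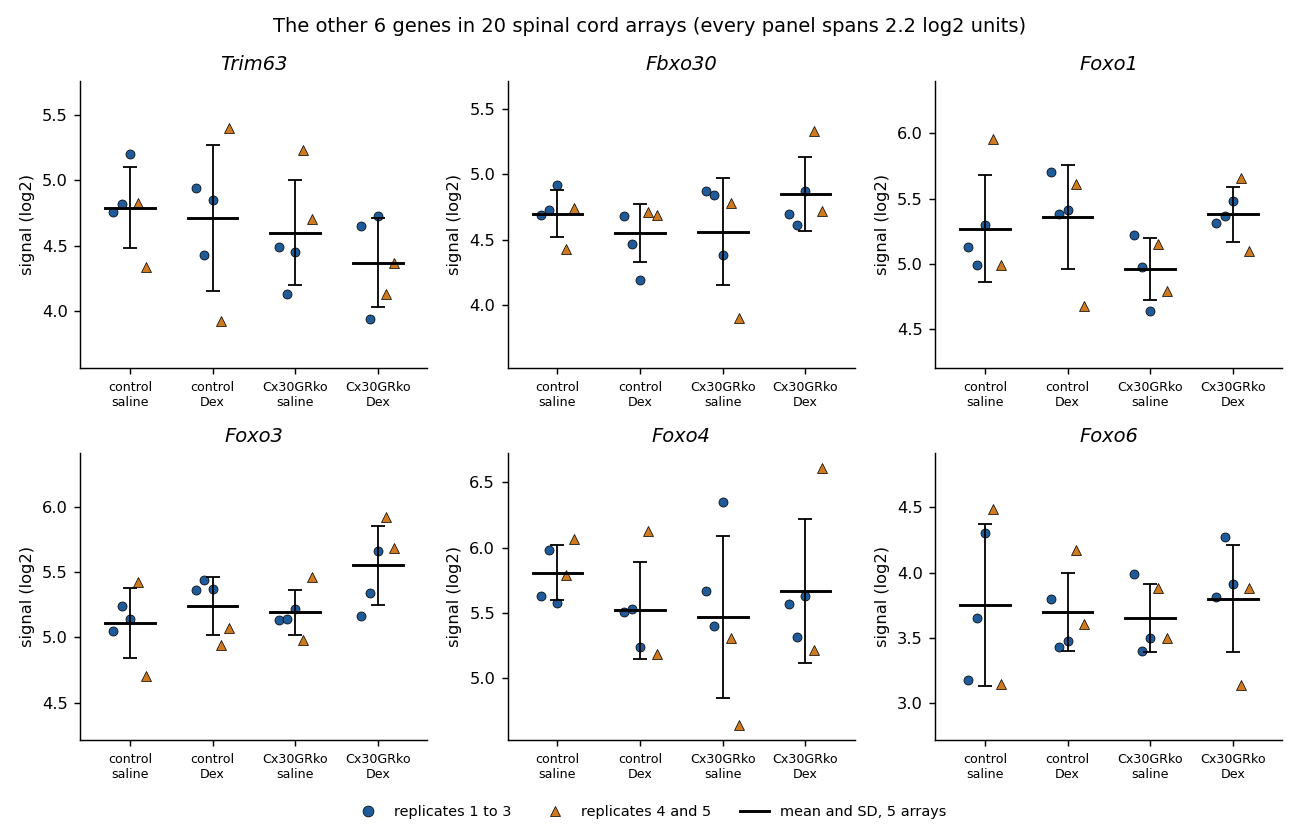
Log2 signal (vertical axes, each spanning the same width) of the other 6 genes in the 20 arrays by group; circles are replicates 1 to 3, triangles replicates 4 and 5, and bars the mean and SD of 5 arrays. Dex and saline arrays overlap in every panel and genotype, and for Foxo3 and Fbxo30 the highest signal of all is Cx30GRko Dex replicate 4.

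In replicates 1 to 3, the larger array set, Dex arrays lay wholly below saline arrays in control mice for Fbxo32, Fbxo30 and Foxo4, 3 of the 7 genes, where 5.72% of all genes did so, and wholly above for Foxo1 and Foxo3, 2 of the 7 against 6.88%. In Cx30GRko mice of that set the same was seen for Fbxo32 alone below (5.34% of all genes) and for Foxo1 alone above (5.79%). Both genotypes shared the direction for Fbxo32, as did 0.433% of all genes, and for Foxo1, as did 1.0%. The choice of genes used this contrast, and nothing is read from these counts.

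**Figure D3:**
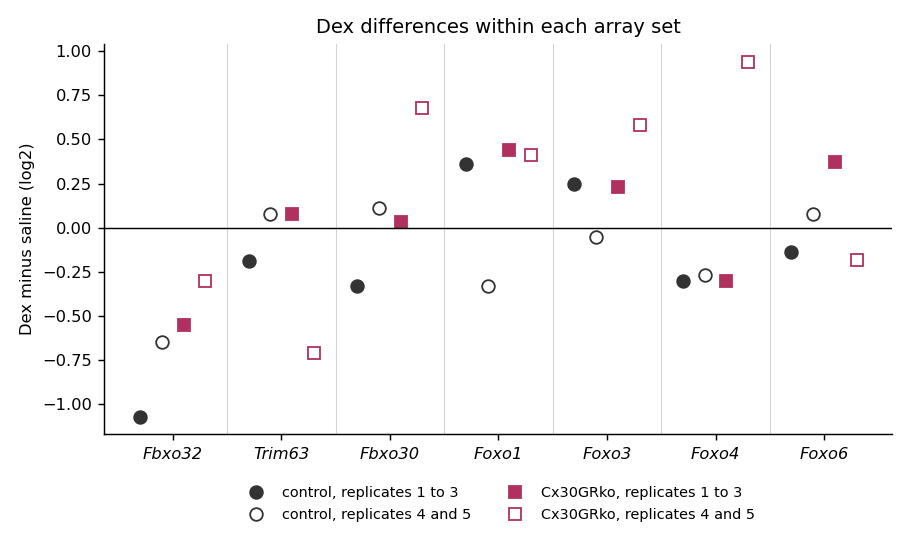
Dex minus saline in log2 units (vertical axis) for each of the 7 genes, in control mice (circles) and Cx30GRko mice (squares), within replicates 1 to 3 (filled) and replicates 4 and 5 (open). Fbxo32 is below 0 in all 4 comparisons, between -1.07 and -0.30, and each of the other 6 genes has values on both sides of 0 in at least 1 genotype.

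Tests of genotype gave no call among the 7 genes. Under saline, 0 of 7 passed in limma (0.0% of all genes), and 0 of 7 had an unadjusted p under 0.05 (5.25% of all genes). The furthest apart were Foxo4 at -0.34 ± 0.27 and Foxo1 at -0.32 ± 0.20 (adjusted p = 0.916 and 0.914). Their 95% intervals, -0.90 to 0.23 and -0.74 to 0.10, leave room for differences of some size in either direction. After Dex, 0 of 7 passed (0.0% of all genes), and Fbxo32 was the 1 gene with an unadjusted p under 0.05, against 11.2% of all genes. For the interaction 0 of 7 passed (0.0% of all genes) and 0 of 7 had an unadjusted p under 0.05 (5.65% of all genes). The interaction estimate was above 0 for 6 of the 7 genes, from 0.20 ± 0.35 for Foxo6 to 0.49 ± 0.38 for Foxo4, and -0.15 ± 0.35 for Trim63, beside a median of 0.02 over all genes. The Foxo4 value was 0.00 in the first array set and 1.21 in the second, and that of Foxo3 was -0.02 and 0.64. For Trim63 it was 0.28 and -0.79, so which genes lay above 0 depended on the set. When the arrays that stood apart were left out, the interaction was 0.38 for Fbxo32, 0.35 for Foxo1, 0.32 for Foxo4, 0.40 for Foxo6, 0.08 for Foxo3 and -0.07 for Trim63.

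**Figure D4:**
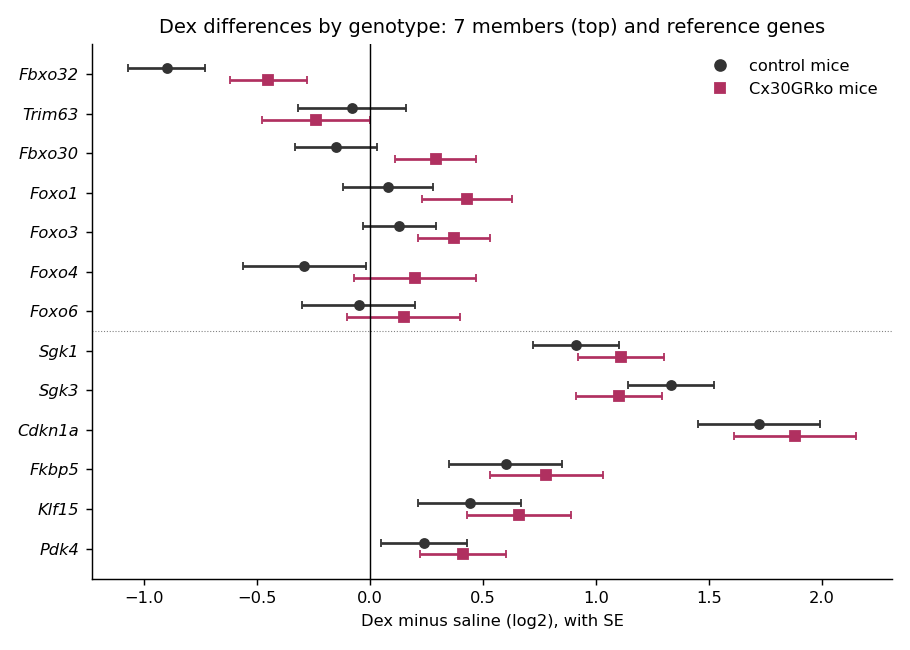
Dex minus saline in log2 units (horizontal axis) with its standard error for the 7 genes and, below the dotted line, 6 glucocorticoid-responsive reference genes, in control mice (circles) and Cx30GRko mice (squares), 5 arrays per group. Fbxo32 lies at -0.90 and -0.45, the other 6 genes between -0.29 and 0.43, Sgk1, Sgk3 and Cdkn1a between 0.91 and 1.88, and Fkbp5, Klf15 and Pdk4, which were not called, between 0.24 and 0.78.

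Deviations of the 7 genes from the mean of their group and array set showed no correlation that passed a test. Over the 20 arrays Pearson's r of the 21 gene pairs ran from -0.36 (Fbxo32 and Foxo4) to 0.60 (Fbxo32 and Foxo3), and none passed an exact two-sided permutation test within groups and sets. For Fbxo32 and Foxo3 the exact p was 0.179 (0.688 adjusted over the 21 pairs), Spearman's rho was 0.51 (exact p = 0.14, adjusted 0.782), r was -0.07 and 0.86 in the sets, and it was 0.20 without the 2 arrays farthest from the median, so this value rests on those arrays. Fbxo32 and Trim63, which rise together in wasting muscle, had an r of 0.46 (exact p = 0.0708, adjusted 0.688) and a rho of 0.46 (exact p = 0.0779, adjusted 0.782), with 0.51 and 0.44 in the sets and 0.43 without the farthest 2 arrays.

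Genes whose signal over all 20 arrays was most like that of Fbxo32 were Sytl2, a synaptotagmin-like protein gene (r = 0.84, rho = 0.83), Sema6d, a semaphorin gene (0.80 and 0.83), the predicted gene Gm10863 (0.80 and 0.80), the perforin gene Prf1 (0.76 and 0.72) and the Notch ligand gene Jag1 (0.75 and 0.69). Most opposite were Pnpla2, the adipose triglyceride lipase gene (r = -0.85, rho = -0.77), Rab31, a small GTPase gene (-0.82 and -0.80), and Fam214a (-0.77 and -0.74). These 8 were picked as extremes of all genes and carry no test, and the shared Dex contrast enters every value. After removal of group and set means the r with Fbxo32 was 0.84 for Sema6d, 0.66 for Sytl2, 0.54 for Prf1, 0.48 for Gm10863 and 0.40 for Jag1. For the opposite genes it was -0.63 for Rab31, -0.24 for Pnpla2 and -0.03 for Fam214a. The Dex differences (mean of both genotypes) of Pnpla2, Rab31 and Fam214a were 0.76 ± 0.10, 0.67 ± 0.11 and 0.56 ± 0.10, and that of Sytl2 was -0.44 ± 0.10, again as descriptions. Foxo1 was most like Slc4a1, the red cell anion exchanger gene (r = 0.81), St3gal4 (0.80) and Ect2l (0.78). The genes most like Foxo3 were Khdc4 (0.88), the glucocorticoid-responsive factor gene Klf9 (0.87) and Itsn2 (0.87), with r in the first set of 0.34, 0.68 and 0.41 and in the second of 0.98, 0.92 and 0.96.

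Upstream of FoxO, 18 of 20 listed genes of insulin and IGF-1 signalling to Akt were measured. As the mean of both genotypes 2 of the 18 rose, the kinase genes Sgk1 (1.01) and Sgk3 (1.22 ± 0.13, limma adjusted p = 7.64e-05), and none fell, where 0.149% of all genes were called. This list was chosen with earlier results of these data known, so nothing is read from its share of calls beside that of all genes. Both kinases phosphorylate FoxO proteins as Akt does. In control mice Sgk3 alone was called (0.0135% of all genes), and in Cx30GRko mice both were (0.018%). The control call was lost without control Dex replicate 1 or 4, and the Cx30GRko count changed in 18 of the 20 fits that each left out 1 array, down to 0. Neither gene was called in Cx30GRko mice when the arrays that stood apart were left out, although the differences were then 1.12 for Sgk1 and 1.07 for Sgk3, against 1.11 for Sgk1 and a like size for Sgk3 with all arrays. The list's median Dex difference was 0.16, beside 0.02 over all genes. Akt1, with the next smallest p, stood at 0.29 ± 0.13 (adjusted p = 0.563), at 0.00 in the first set, 0.71 in the second and 0.16 without the arrays that stood apart. Of 21 measured enzymes and partners that modify FoxO proteins, none was called (median 0.10), and the smallest p were those of the 14-3-3 gene Ywhag at -0.43 ± 0.19, the kinase gene Stk4 at -0.26 ± 0.12 and the 14-3-3 gene Ywhab at 0.18 ± 0.09 (adjusted p = 0.571, 0.574 and 0.593). Without the arrays that stood apart these were -0.18, -0.13 and 0.12, and in the first array set Ywhag stood at -0.12 and Stk4 at 0.06.

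Downstream, 25 FoxO target genes outside the ubiquitin system were measured and none was called (median 0.13, 16 above 0), where 0.149% of all genes were. Lists of this size would seldom hold a call at that share, so nothing is read from counts of 0. Sesn1, a stress-induced sestrin that p53 also controls, stood at 0.84 ± 0.18 (adjusted p = 0.0756), at 0.43 in the first array set and 1.46 in the second. Klf15, a transcription factor that glucocorticoids induce in muscle, stood at 0.55 ± 0.16 (adjusted p = 0.342; 0.84 and 0.12 in the sets), Tnfsf10, the TRAIL gene, at -0.43 ± 0.15 (0.478) and Pdk4, the pyruvate dehydrogenase kinase, at 0.33 ± 0.14 (0.541). None of 15 autophagy genes was called (median 0.02). Map1lc3b, which coats autophagosomes, stood at 0.38 ± 0.15 (0.541), and at 0.23 without the arrays that stood apart.

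No relative or partner of Fbxo32 passed, where 0.149% of all genes were called for the mean Dex difference. At that share a list of this size would seldom hold a call, so nothing is read from counts of 0. Of 17 measured genes of the SCF core, F-box and TRIM relatives and other atrophy-linked ligases none was called, and their Dex differences ran from -0.16 to 0.27 with a median of 0.10. Fbxo25, the closest relative of Fbxo32, stood at 0.02 ± 0.13, and the muscle F-box gene Fbxo40 at -0.05 ± 0.15 (adjusted p = 0.967 and 0.94; both named after their values were seen). The smallest p in that list were those of Skp1, which bridges F-box proteins to the cullin, at 0.21 ± 0.11, Traf6 at 0.24 ± 0.13 and Zfand5 at 0.12 ± 0.07 (0.598, 0.62 and 0.652). Skp1 stood at 0.12 without the arrays that stood apart. Among 19 substrates and regulators of the atrophy ligases none was called (median 0.06), with Smad4, the shared Smad of TGF-beta and BMP signalling, at 0.43 ± 0.21 and Myog, the myogenin gene, at 0.31 ± 0.15 (0.581 and 0.586). Without the arrays that stood apart Smad4 stood at 0.13.

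**Figure D5:**
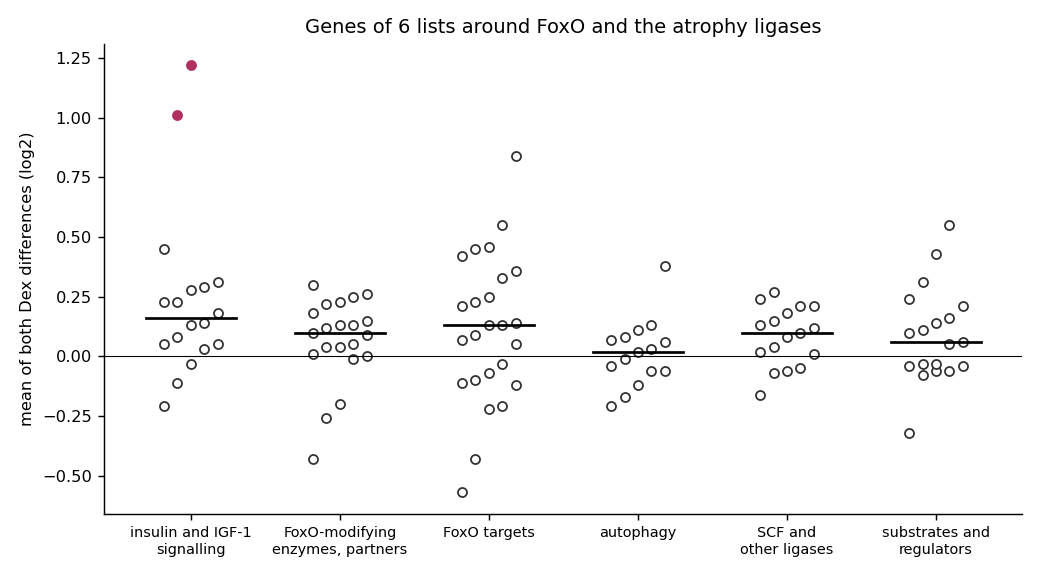
Mean of both Dex differences in log2 units (vertical axis) for each measured gene of the 6 lists; filled points passed limma at an adjusted p under 0.05 and bars are list medians. The 2 filled points are Sgk1 and Sgk3, and list medians lie between 0.02 and 0.16.

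Fbxo32 and Trim63 are best known from skeletal muscle, so markers of that tissue, which can cling to a dissected cord, were set beside them. Of 13 muscle markers, all measured, 7 had means below the median of all probe sets, among them the heavy chain genes Myh1, Myh2 and Myh4 and the creatine kinase gene Ckm. The mean marker signal of an array ranged from 4.39 to 5.40 after saline and 4.38 to 4.89 after Dex in control mice, and from 4.33 to 4.75 and 3.99 to 4.75 in Cx30GRko mice. The highest muscle signals, 5.40 and 5.04, were those of control saline replicates 2 and 5, whose Fbxo32 signals were 6.59 and 5.79, the latter the lowest of all saline arrays. The list's median Dex difference was -0.21 in control mice (2 of 13 above 0) and 0.08 in Cx30GRko mice (7 of 13). No marker was called, where 0.0135% and 0.018% of all genes were. Acta1 and Actn3, the brightest muscle markers, differed by -0.48 ± 0.26 and -0.12 ± 0.15 as the mean of both genotypes, and by -0.14 and -0.00 without the arrays that stood apart. Acta1 was at -0.13 in the first array set and -0.99 in the second.

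Markers of some other cells in or around the cord also differed in their medians. Those of meningeal fibroblasts (8 measured) had a median Dex difference of -0.46 in control mice (7 of 8 below 0) and 0.46 in Cx30GRko mice (7 of 8 above 0), and those of endothelial cells (8 measured), which are known to express Foxo1, of -0.35 and -0.05. Mean meningeal signals ranged from 5.46 to 6.33 after saline and 4.43 to 5.89 after Dex in control mice, and from 4.58 to 5.85 and 4.53 to 6.48 in Cx30GRko mice. Endothelial means ranged from 5.61 to 5.99 and 5.38 to 5.62 in control mice, and from 5.65 to 6.03 and 5.44 to 6.19 in Cx30GRko mice. The 3 measured Schwann cell markers of 5 listed, which mark nerve roots, had median Dex differences of -0.93 and 0.40. In control and Cx30GRko mice the medians were -0.01 and -0.03 for smooth muscle and mural cells and 0.19 and 0.17 for neurons. For oligodendrocytes they were 0.11 and 0.30, and for microglia -0.14 and 0.26. Astrocyte markers (9 measured) had median Dex differences of 0.04 and 0.34, and their mean signal reached 7.97 in Cx30GRko Dex arrays against at most 7.37 in the other groups. The highest mean signals of oligodendrocyte markers (8.89 against at most 7.94) and neuron markers (8.13 against at most 7.76) were also from Cx30GRko Dex arrays. That group holds the arrays that stood apart, and its medians were lower: 7.44 for astrocyte, 7.94 for oligodendrocyte and 7.58 for neuron markers. None of these markers was called in control or Cx30GRko mice, where 0.0135% and 0.018% of all genes were. The part of these markers in the values of the 7 genes was not tested.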

How the data were processed

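Spinal cord RNA of 20 mice was hybridised to Affymetrix whole-transcript arrays. The authors deposited 1 table of log2 probe set values; the tool per the submitters' processing notes was oligo, and no version, normalization method or annotation is named in the labels. The deposited values had equal means (4.638) on all arrays, and each probe set had the same mean in replicates 1 to 3 as in replicates 4 and 5 (largest difference 4.5e-09; median 0.107 for a split within replicates 1 to 3), so they had been centred within these sets, which uses up 1 degree of freedom that the reported fit does not count. No pair of arrays had identical values. Replicates are separate mice, 5 per group, and their number limits the precision.

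Of 41345 probe sets 23521 had 1 gene symbol, 1814 several and 16010 none. For each of 22180 genes the probe set with the highest mean was used. All 20 arrays entered one model with 4 group means, fitted with limma 3.58.1 in R 4.3.3 (16 residual and 5.66 prior degrees of freedom), without a filter on dim probe sets, and two-sided p-values were adjusted by Benjamini-Hochberg over all genes within each comparison; adjusted p under 0.05 was called. The code of the fit was run on simulated independent normal values. These had no centring by array set and no arrays of wider spread, so that run does not cover those features. The members and lists were chosen with earlier results of these data known. Named genes are the 7 members, up to 3 of each list with the smallest p for the mean Dex difference, any called list member, fixed reference genes, and those most like Fbxo32 (5 and 3 opposite), Foxo1 and Foxo3 (3 each). Deviations of same-numbered arrays correlated from -0.31 to 0.04 (median -0.09, 30 pairs), beside a median of -0.11 for other numbers in the same array set. Centring within the sets lowers all these correlations, so only the medians can be compared, and they lay close together.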

Additional observations from a re-analysis of the deposited data

Results flagged for a closer look

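Among 32 groups of 5 arrays (8 probe sets in 4 groups) 1 array lay far from the other 4 of its group: Fbxo32 in Cx30GRko Dex replicate 4, at 6.31, with a gap to the next array of 0.75 of the group's range against a critical value of 0.71. Chance marks about 1 in 20 such groups. The array is one of the pair that stood apart across probe sets, and without both of them the Dex difference of Fbxo32 in Cx30GRko mice was -0.52 in place of -0.45.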

How the results depend on the processing

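The lower Fbxo32 signal after Dex kept its direction in both genotypes under every alternative run: without 1 array it ranged from -1.07 to -0.81 in control and from -0.53 to -0.40 in Cx30GRko mice. No genotype or interaction comparison of the 7 genes passed under any alternative. Small differences changed sign, and some others changed in size. In replicates 1 to 3 alone, the interaction was 0.28 for Trim63 and -0.02 for Foxo3, the Cx30GRko minus control difference after Dex -0.11 for Foxo1 and -0.00 for Foxo3, that under saline 0.08 for Foxo4, and the Foxo4 Dex difference in Cx30GRko mice -0.30. The mean Dex difference there was -0.20 for Nr3c1, 0.06 for Stk4, -0.02 for Sqstm1 and -0.00 for Smad4. In replicates 4 and 5 alone, the genotype difference under saline was 0.09 for Fbxo32 and 0.38 for Trim63, that after Dex -0.39 for Foxo6, and the Foxo6 interaction -0.26. The Dex difference there was -0.33 for Foxo1 in control mice, and as the mean of both -0.01 for Pdk4 and -0.05 for Fkbp5. Larger values with the pooled sign were seen there in Cx30GRko mice for Trim63 (-0.71), Fbxo30 (0.68) and Foxo4 (0.94). The same held for Fbxo30 as the mean of both (0.40). With array weights the Trim63 interaction was 0.09, the Foxo1 genotype difference after Dex -0.06 and the mean Dex difference of Nr3c1 -0.10. Without Cx30GRko Dex replicates 4 and 5 the Foxo4 genotype difference after Dex was -0.01 and the mean Dex difference of Nr3c1 -0.00. The cause of these changes was not tested.

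Leaving out 1 array gave genotype differences under saline from -0.20 to 0.06 for Fbxo32, -0.23 to 0.01 for Fbxo30, -0.03 to 0.15 for Foxo3 and -0.25 to 0.08 for Foxo6. After Dex they ran from -0.15 to 0.11 for Foxo1, -0.08 to 0.30 for Foxo4 and -0.02 to 0.27 for Foxo6. The Trim63 interaction ran from -0.35 to 0.02.

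Of the insulin and Akt list, the control count of 1 became 0 with the replicate number as a block and in replicates 4 and 5, and 2 with array weights. The Cx30GRko count of 2 became 0 with the replicate block, the array set as a block, a second quantile normalization, replicates 4 and 5 alone or without Cx30GRko Dex replicates 4 and 5, and 1 in replicates 1 to 3. The count of 2 for the mean became 0 in replicates 4 and 5. Without 1 array the counts ran from 0 to 2 in each genotype. Among FoxO targets 0 called became 1 in replicates 1 to 3 (Klf15), 1 after the filter on dim probe sets (Sesn1) and 3 with array weights, and ran from 0 to 1 without 1 array (Sesn1, on leaving out the third control saline or the fifth control Dex array). Among substrates and regulators it became 1 (Klf15) with array weights and in the first set.

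Over all genes the mean Dex difference had 29 called higher and 4 lower, 79 and 22 in the first array set, 0 and 0 in the second, 105 and 24 with array weights, and 15 and 0 with the replicate block. The control count of 3 higher became 30 in the first set, 46 with array weights, 7 without Cx30GRko Dex replicates 4 and 5, and 0 with the replicate block or in the second set, and the Cx30GRko count of 4 became 17 with array weights, 2 with the array set as a block or a second quantile normalization, and 0 with the replicate block, in the second set or without Cx30GRko Dex replicates 4 and 5. The 7 genes were given no Dex call, so the replicate block could change none. Their genotype and interaction comparisons passed neither with nor without that block.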
